A study of Mus musculus with 192 samples.

Results

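At the onset of diabetes (T2), brains of homozygous (HOM) L44 mice were compared with brains of hemizygous (HEM) L44 mice, which carry the same transgene at the lower dose. The comparison used every T2 pool of these genotypes, 5 HEM and 5 HOM pools in each of 4 brain regions, which made 40 of the 192 pools of the series. The series as a whole counted mRNA of genes of the amylin, insulin and leptin pathways on the nCounter platform, in which each mRNA is hybridised to a colour-barcoded probe and counted singly without amplification. It covered nontransgenic (NON), HEM and HOM mice at 3 stages of disease. The regions were the hindbrain with the cerebellum, the midbrain with the forebrain and hypothalamus, the left cortex and the right cortex.

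L44 is a line on the FVB/n background that expresses a triprolyl variant of human amylin, with the rat insulin 2 promoter driving the transgene, and mice develop diabetes spontaneously. All mice were male. Both genotypes carry the transgene, so the comparison has no untreated arm of its own, and NON mice of the line at T2 are given beside it as the background. In the paper these NON mice were controls, with a mean blood glucose far below that of the diabetic HEM and HOM mice. Values against NON therefore differ in diabetic state as well as in genotype. The HEM pools held RNA of 9 mice aged 90 to 271 days, and the HOM pools held RNA of 9 mice aged 100 to 246 days. The median of the mean ages of the pools was 201 days in HEM and 177.5 days in HOM. In each genotype, 2 pools were collected in the morning (AM) and 3 in the afternoon (PM). The AM pools were HEM 4/6 and 9 and HOM 1/3 and 5, and the PM pools were HEM 5/10, 7/12 and 8/14 and HOM 4/8, 6/9 and 7/10. A pool such as 4/6 mixed equal amounts of RNA of mice 4 and 6 of its group, and HEM pool 9 and HOM pool 5 each came from 1 mouse. The 7 NON pools held RNA of 14 mice aged 90 to 286 days, with 2 AM and 5 PM pools. The same pools were measured in all 4 regions, so the regions are not independent of each other.

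Amylin, insulin and leptin are hormones that rise with food intake or with body fat and reach the brain, where they restrain feeding. Amylin acts through the calcitonin receptor Calcr paired with a receptor activity-modifying protein (Ramp1, Ramp2 or Ramp3), and c-Fos is the usual marker of neurons that it has activated. Leptin acts through the long receptor Lepr-b, the kinase Jak2 and the transcription factor Stat3, whose target Socs3 shuts the receptor off again. Insulin acts through its receptor Ir, the substrates Irs1 and Irs2, PI 3-kinase and Akt, which restrains Foxo1 and Gsk3b and activates mTor. In the hypothalamus these signals meet on Npy and Agrp neurons, which promote feeding, and on Pomc and Cart neurons, which restrain it.

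The total count over the 43 target genes in the HEM and HOM pools was 140648 to 252890 (hindbrain), 238135 to 314759 (midbrain), 234552 to 431080 (left cortex) and 254796 to 525264 (right cortex). Values below are normalised counts, that is counts divided by the geometric mean of 3 reference genes in the pool and scaled to the average of the region. A gene was taken as above background in a pool when its count exceeded the mean plus 2 SD of that pool's 8 negative control probes. Of the 43 genes, 42 in the hindbrain, 43 in the midbrain and 39 in each cortex were above background in at least 5 of the 10 pools. Genes of the lateral hypothalamus marked the midbrain samples. Mch, melanin-concentrating hormone, was at 24621 ± 1301 in HEM and 26294 ± 3375 in HOM (SD, n = 5 each) in the midbrain, against 97.4 to 173 as the genotype means in the other regions. Hcrt, the orexin precursor, was at 835 ± 105 in HEM and 804 ± 58.4 in HOM in the midbrain and 23.0 to 45.9 as the genotype means elsewhere. In whole tissue such as this, fewer cells of a type and less RNA per cell cannot be told apart.

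Few differences between HOM and HEM brains passed the test. The midbrain of HOM mice had less Pdk1 than that of HEM mice, with a log2 fold-change of -0.33, and the hindbrain had less Arrb1, with -0.12. These were the only 2 of 172 tests, 43 genes in 4 regions, that passed an adjusted p of 0.05 in the quasi-likelihood test of edgeR, after Benjamini-Hochberg correction within a region (1.16% of tests). With the correction taken over all 172 tests neither passed (adjusted p = 0.0891 for both). No difference exceeded 1 on the log2 scale, and 9 of 172 (5.23%) exceeded 0.58. At an unadjusted p under 0.05 there were 20 of 172 (11.6%), of which 15 were lower and 5 higher in HOM. The pools of the 2 genotypes did not overlap for 4 of 172 (2.33%). These were Arrb1 in the hindbrain, Pdk1 and mTor in the midbrain, all lower in HOM, and Lepr-b in the left cortex, which was higher in HOM. The median SE of a log2 fold-change was 0.086 for the hindbrain, 0.068 for the midbrain, 0.117 for the left cortex and 0.098 for the right. The p-values measure the spread between these pools of mice.

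**Figure D1:**
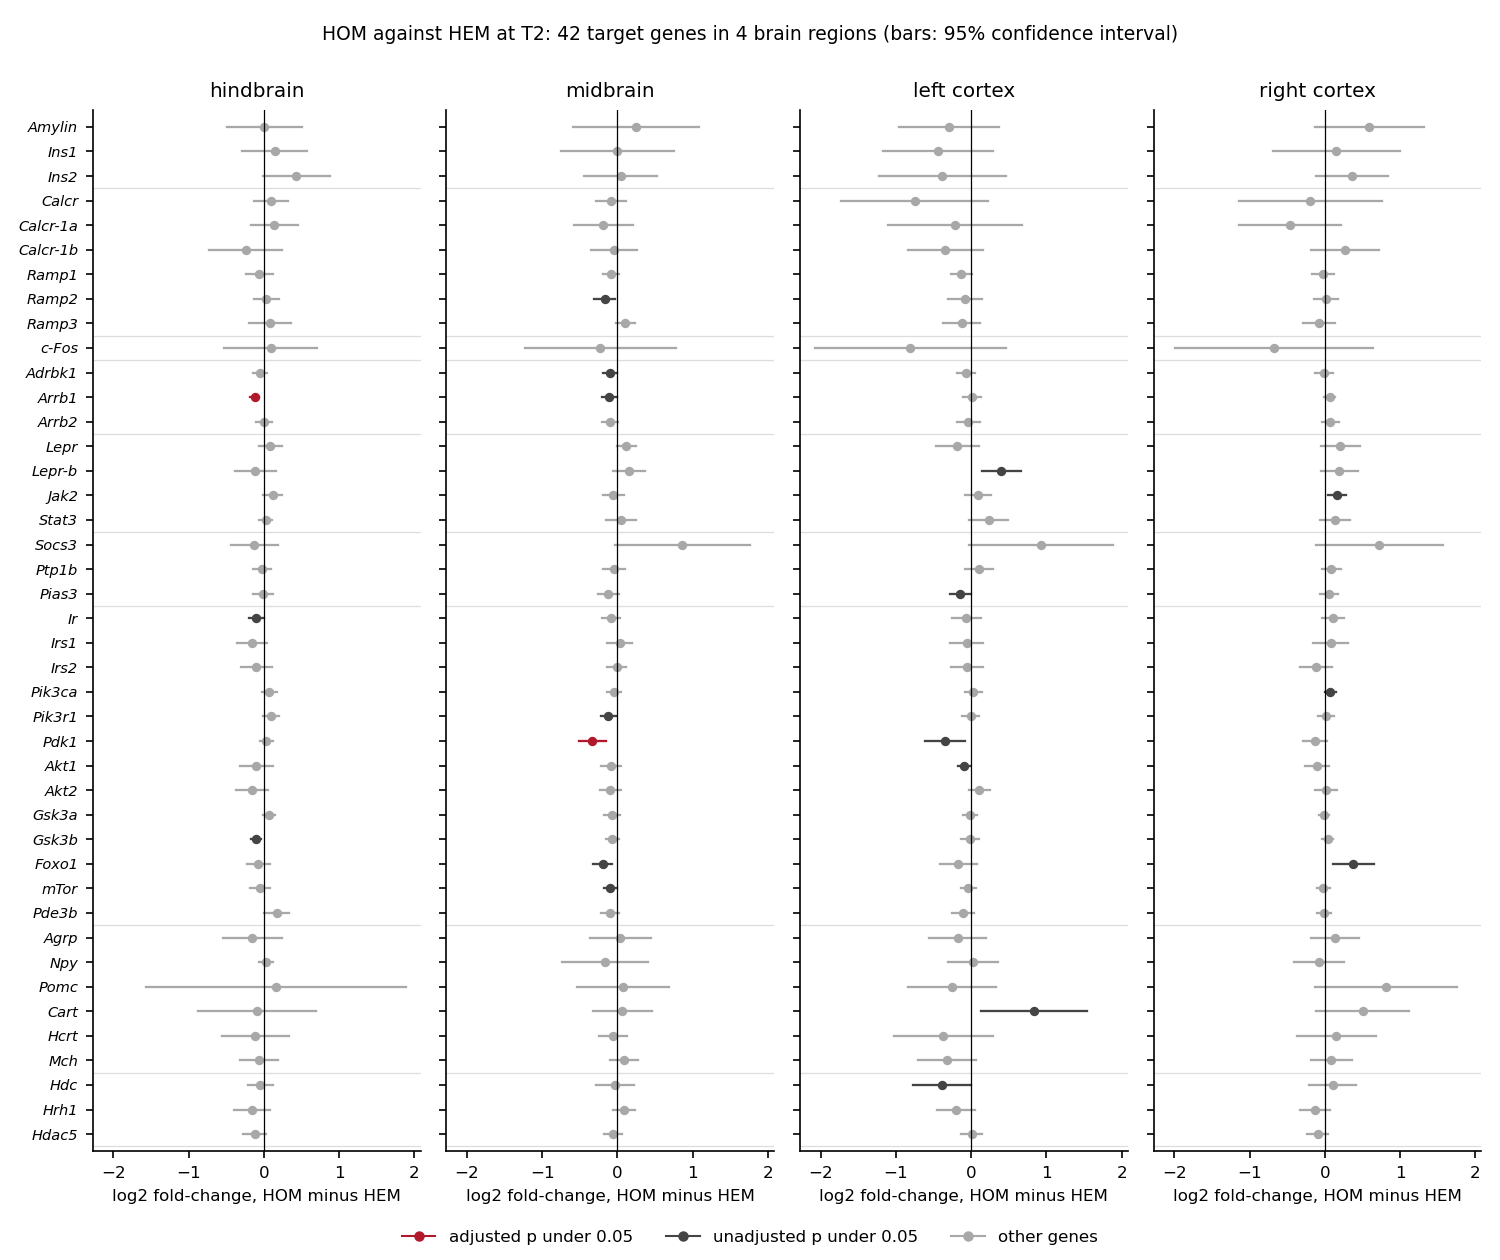
Log2 fold-change of HOM over HEM at T2 for 42 of the 43 target genes in each of the 4 regions, with the 95% interval as a bar, in red for an adjusted p under 0.05, in dark grey for an unadjusted p under 0.05 and in light grey for the rest. Arrb1 in the hindbrain (-0.12) and Pdk1 in the midbrain (-0.33) are the 2 red points.

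Outside the midbrain the ligands themselves were at or near background. The Amylin probe targets the mouse gene Iapp, and the signal of the mouse gene could not be told apart from that of the transgene. In the midbrain, Amylin was above background in all 10 pools, at 75.4, 43.9, 46.5, 21.9 and 41.8 normalised counts in HEM pools 4/6, 9, 5/10, 7/12 and 8/14. The HOM pools 1/3, 5, 4/8, 6/9 and 7/10 had 53.5, 21.7, 95.3, 75.8 and 37.1. The ranges overlapped almost wholly, and the log2 fold-change was 0.25 (95% interval -0.59 to 1.08). In the right cortex Amylin averaged 23.1 ± 7.41 in HEM and 35.8 ± 18.0 in HOM (log2 fold-change 0.59, SE 0.34, adjusted p = 0.414), with only 2 of 10 pools above background. The highest HOM pool had 65.2, against a HOM median of 28.1 and a highest HEM pool of 32.6. In the hindbrain and left cortex the genotype means were 16.0 to 19.2, and 3 of 10 pools were above background in each. Ins1 and Ins2, the mouse insulin genes, had genotype means of 12.6 to 35.0 across the regions. Ins2 in the hindbrain was at 20.1 ± 5.31 in HEM and 27.6 ± 10.0 in HOM (log2 fold-change 0.43, SE 0.21, adjusted p = 0.467). There HOM pool 1/3 had 44.3 and the other HOM pools 18.8 to 28.6, against 12.8 to 26.8 in the HEM pools. Neither Amylin nor an insulin gene was above background in at least 5 of the 10 pools in either cortex. In the midbrain Ins2 was above background in all 10 pools and Ins1 in 6.

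Calcr, the receptor subunit that binds amylin, did not pass edgeR's quasi-likelihood test for HOM against HEM in any region. In the midbrain it was at 1028 ± 74.4 in HEM and 973 ± 136 in HOM (log2 fold-change -0.08, 95% interval -0.28 to 0.12). In the hindbrain it was at 331 ± 60.3 and 352 ± 46.0 (0.10, interval -0.13 to 0.32). The cortices held far less Calcr and varied far more between pools. In the left cortex, HEM pools 4/6, 9, 5/10, 7/12 and 8/14 had 16.4, 61.0, 200.0, 146 and 36.1, and HOM pools 1/3, 5, 4/8, 6/9 and 7/10 had 40.2, 23.4, 83.6, 18.3 and 90.9. The 2 highest pools were HEM pools of the afternoon, but the lowest pools also came from both genotypes. The log2 fold-change was -0.75 (interval -1.73 to 0.22, adjusted p = 0.373). In the right cortex the means were 106 ± 53.3 and 99.0 ± 54.7 (-0.19, interval -1.14 to 0.76).

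The modulators that turn Calcr into an amylin receptor were well counted everywhere. None passed the adjusted threshold with the settings used. Ramp2 in the midbrain was nearest, at 2711 ± 183 in HEM and 2409.5 ± 90.7 in HOM (log2 fold-change -0.17, SE 0.065, adjusted p = 0.195). Without B2m it was -0.24 and was called in edgeR (adjusted p = 0.0456). Its HEM pools spanned 2531 to 3010.5 and its HOM pools 2312 to 2555, with a single HEM pool reaching into the HOM range. Ramp1 was lower in HOM in all 4 regions, with log2 fold-changes of -0.13 to -0.02. With the positive control probes it was called higher in HOM in the right cortex (0.24, adjusted p = 0.0232 in edgeR). Ramp3, the only modulator with a higher mean in HOM in the midbrain, was at 3189 ± 125 in HEM and 3430 ± 192 in HOM (0.11). Of the 24 values of the 6 receptor probes over 4 regions, 7 were higher and 17 lower in HOM, with a median of -0.08 against -0.04 for all 172. With the positive control probes as the scale the split was 16 higher and 8 lower, while over all 172 values it went from 70 higher and 102 lower to 133 and 39. The probes Calcr and Calcr-1a name the same transcript, so they are not separate evidence.

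c-Fos, an immediate early gene that marks recent neuronal activity, did not pass the test over all pools in any region. Its spread between pools was wide and followed the same pools in the midbrain and both cortices. In the right cortex, HEM pools 4/6 and 9 of the morning had 6809.7 and 4933, and HEM pools 5/10, 7/12 and 8/14 of the afternoon had 36256, 6209 and 4636. The HOM morning pools 1/3 and 5 had 10387 and 16504, and the afternoon pools 4/8, 6/9 and 7/10 had 3415, 7491 and 4056. Both HOM morning pools thus stood above both HEM morning pools, while the highest value of all was 1 HEM afternoon pool. In that region the morning pools were higher in HOM without overlap for 22 of 43 genes (51.2%). The log2 fold-change of HOM over HEM was -0.68 (right cortex), -0.81 (left cortex), -0.23 (midbrain) and 0.09 (hindbrain), with SEs of 0.62, 0.60, 0.47 and 0.29. Without HEM pool 5/10 the direction turned in 3 regions, to 0.47 (right cortex), 0.34 (left cortex) and 0.43 (midbrain).

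HEM pool 5/10 was also highest in the left cortex, at 28449 against 3256 to 5373 in the other HEM pools, and in the midbrain, at 11206 against 1682 to 4089. In the hindbrain it was at 3361, inside the HEM range of 2338 to 4537. Its mice were 90 and 156 days old, the lowest mean age of the HEM pools (123 days). With age as a covariate c-Fos was not called in any region. The part of age in the value of this pool was not tested. Among the morning pools the log2 fold-change of c-Fos was 0.75 (hindbrain), 1.21 (midbrain), 0.95 (left cortex) and 1.19 (right cortex). Among the afternoon pools it was -0.38, -1.05, -1.65 and -1.65 in the same order. The afternoon difference minus the morning difference was -2.85 in the right cortex (adjusted p = 0.0883), -2.61 in the left cortex (adjusted p = 0.182), -2.26 in the midbrain (adjusted p = 0.452) and -1.13 in the hindbrain. None passed edgeR's quasi-likelihood test after correction by Benjamini-Hochberg within a region, whereas DESeq2 called the right cortex value (adjusted p = 0.0438). Without HEM pool 5/10 these differences were -1.32, -1.09 and -1.41 in the right cortex, left cortex and midbrain, all nearer to 0.

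**Figure D2:**
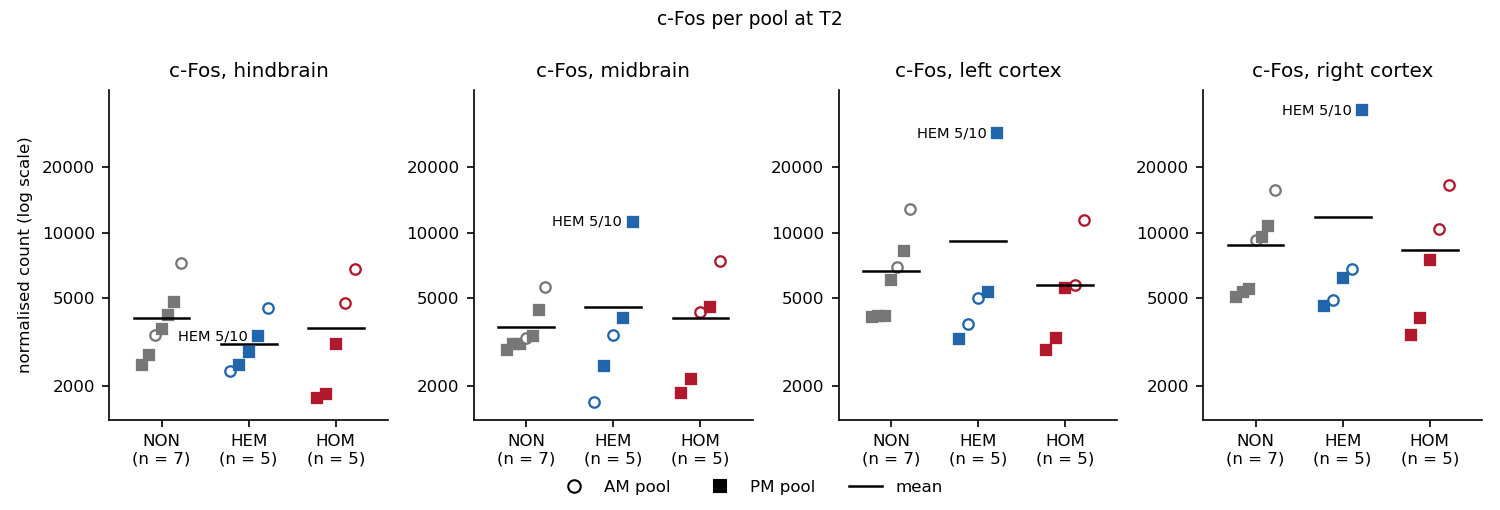
Normalised counts of c-Fos (log axis) in every NON (n = 7), HEM (n = 5) and HOM (n = 5) pool at T2 in the 4 regions, with open circles for AM and filled squares for PM pools. HEM pool 5/10 lies at 11206 (midbrain), 28449 (left cortex) and 36256 (right cortex), and both HOM AM pools lie above both HEM AM pools in each region.

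Among the proteins that desensitise receptors, Arrb1 fell in the hindbrain of HOM mice relative to HEM. Arrb1 is beta-arrestin 1, which uncouples phosphorylated G protein-coupled receptors from their G protein and draws them into the cell. The HEM pools 4/6, 9, 5/10, 7/12 and 8/14 had 14554, 13964, 14843, 14745 and 14379 normalised counts, and the HOM pools 1/3, 5, 4/8, 6/9 and 7/10 had 13362, 12620.1, 13469, 13789 and 13442. Every HOM pool lay below every HEM pool, although the lowest HEM and the highest HOM pool were close together. Non-overlap was seen for 2.33% of hindbrain genes, that is for Arrb1 alone. The means were 14497 ± 347 and 13336 ± 432, a log2 fold-change of -0.12 (SE 0.028, adjusted p = 0.0229 in edgeR's quasi-likelihood test), and Arrb1 was the only gene called in the hindbrain (2.33% of 43). The 7 NON pools spanned 12364 to 13493, overlapping the HOM pools and below all HEM pools. In the same model HEM exceeded NON by 0.16 and HOM exceeded NON by 0.04, and these values share the HEM, HOM and NON pools with the comparison itself. The difference was -0.13 in AM and -0.11 in PM pools. It was small enough to depend on the scale: scaled to the positive control probes it was 0.03 (adjusted p = 0.945), and with TMM normalisation -0.05 (adjusted p = 0.263). Leaving out 1 pool at a time gave -0.13 to -0.10 with adjusted p between 0.0117 and 0.0959, and the call held in 4 of 10 such fits, those without HEM pool 8/14 or 9 or HOM pool 1/3 or 6/9. In the hindbrain the HOM pools also had lower total counts, with geometric means of 160936 against 217101 in HEM (exact permutation p = 0.0333, adjusted p = 0.16 over 16 control measures), and the part of depth in the result was not tested.

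The other 2 genes of this group did not pass with the settings used. Adrbk1, the receptor kinase GRK2 that prepares receptors for arrestin, was at 8643 ± 500 in HEM and 8059 ± 169 in HOM in the midbrain (log2 fold-change -0.10, adjusted p = 0.26). Arrb1 itself was at 20013 ± 955 and 18578 ± 992 in the midbrain (-0.11, adjusted p = 0.26), and Arrb2, beta-arrestin 2, at 7532 ± 184 and 7031 ± 456 (-0.10). Without B2m edgeR called all 3 in the midbrain (adjusted p = 0.0456 each). The log2 fold-changes were then -0.16 (Adrbk1), -0.17 (Arrb1) and -0.17 (Arrb2), and the median of all genes was -0.13. With the positive control probes edgeR called all 3 higher in HOM in the right cortex, among 25 genes there. All 3 were below 0 in the hindbrain and midbrain, with medians of -0.06 and -0.10 against -0.02 and -0.06 for all genes. In the hindbrain that direction turned for all 3 with the positive control probes and for 2 of 3 under TMM, and in the midbrain it held under both. On those scales 39 and 27 of all 43 hindbrain genes were higher in HOM. In the cortices Arrb1 differed by 0.01 (left) and 0.06 (right).

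**Figure D3:**
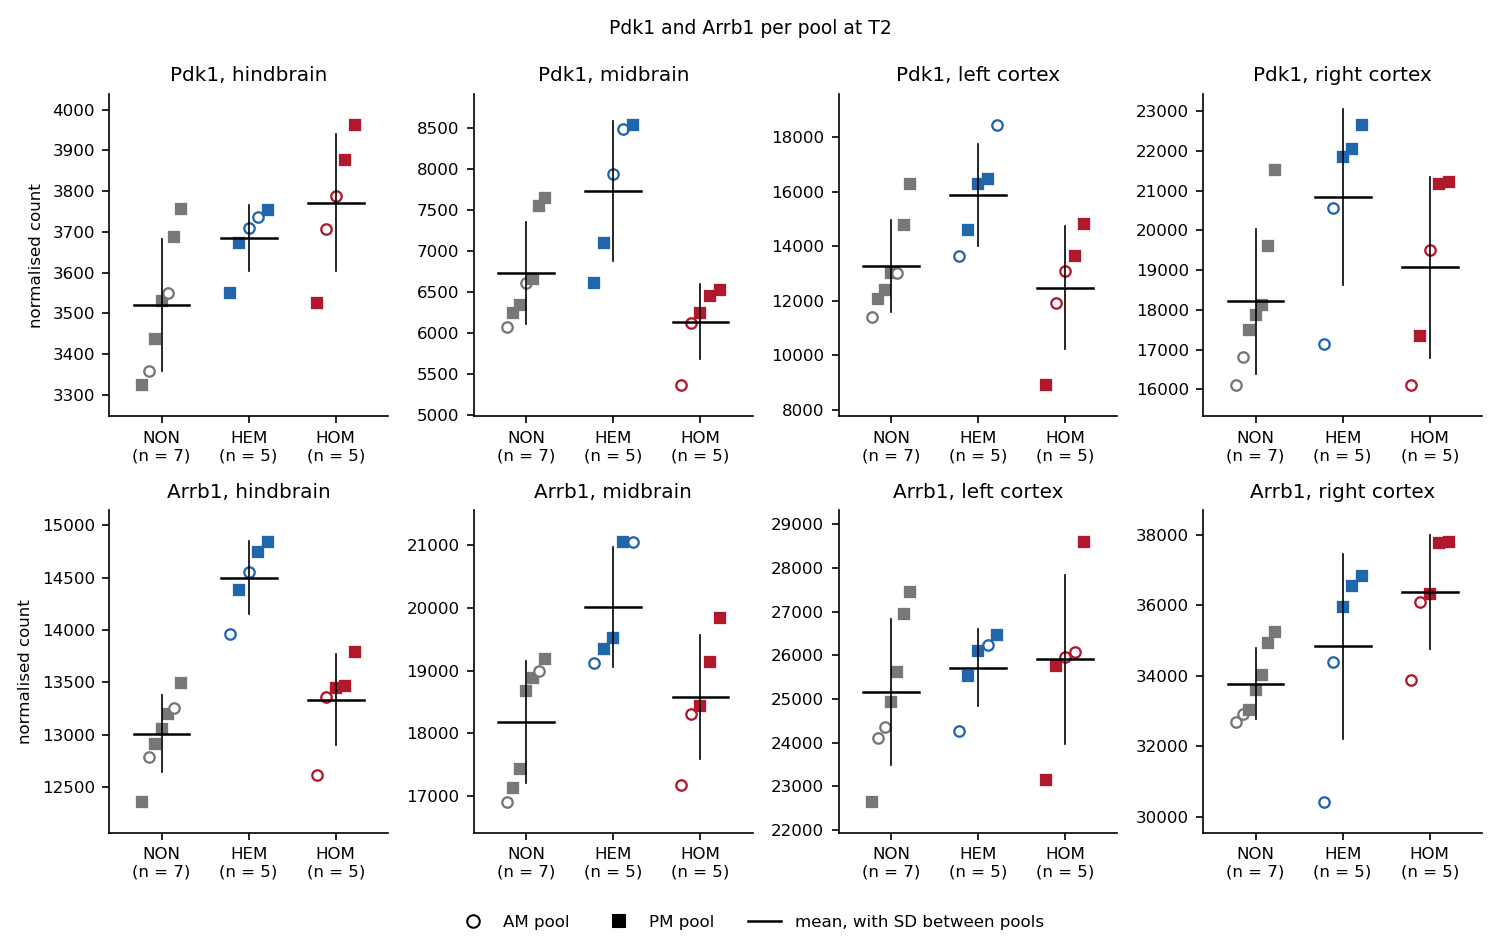
Normalised counts of Pdk1 (top) and Arrb1 (bottom) in the 4 regions in every NON, HEM and HOM pool at T2 (open circles AM, filled squares PM, line and bar the mean and SD; the axes do not start at 0). HOM pools lie wholly below HEM pools for Pdk1 in the midbrain (5367 to 6522 against 6606 to 8529) and Arrb1 in the hindbrain (12620.1 to 13789 against 13964 to 14843).

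In the leptin pathway, the long receptor form stood out in the left cortex. Lepr-b, the only leptin receptor form with the full signalling tail, was at 199, 227, 171, 196 and 183 in HEM pools 4/6, 9, 5/10, 7/12 and 8/14, and at 253, 245, 233, 318 and 235 in HOM pools 1/3, 5, 4/8, 6/9 and 7/10. The lowest HOM pool lay just above the highest HEM pool, and Lepr-b was the only left cortex gene whose pools did not overlap (2.33% of 43). The means were 195 ± 20.7 and 257 ± 35.1, a log2 fold-change of 0.40 (SE 0.12), but the adjusted p was 0.213, and no gene was called in the left cortex (0% of 43). At an unadjusted p under 0.05 there were 7 genes (16.3%), 2 higher and 5 lower in HOM, and DESeq2, limma and the likelihood-ratio test also called 0. The NON pools spanned 194 to 303, overlapping both genotypes. In the same fit HEM minus NON was -0.30 and HOM minus NON 0.09 on the log2 scale. Lepr-b was higher in HOM by 0.19 in the right cortex (adjusted p = 0.414) and 0.15 in the midbrain (adjusted p = 0.37), and the hindbrain had -0.11. The other probe of the same gene, Lepr, was lower in HOM in the left cortex, at 2081 ± 395 in HEM and 1837 ± 296 in HOM (-0.18, adjusted p = 0.462). Elsewhere Lepr differed by 0.21 (right cortex), 0.12 (midbrain) and 0.09 (hindbrain).

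Jak2, the kinase bound to the leptin receptor, was at 28197 ± 725 in HEM and 31765 ± 3472 in HOM in the right cortex (log2 fold-change 0.17, SE 0.057, adjusted p = 0.234). The HEM pools had 28262, 28074, 29191, 28305 and 27155, and the HOM pools 34119 and 36658 in the morning and 30086, 28526 and 29436 in the afternoon. All HOM pools but 6/9 were above all HEM pools, with a difference of 0.33 in AM and 0.06 in PM. In AM pools alone the difference passed in edgeR (adjusted p = 0.0359). The PM minus AM difference did not pass in edgeR (adjusted p = 0.0883), whereas DESeq2 called it (-0.27, adjusted p = 0.034). Over all pools no gene was called in the right cortex (0% of 43). There 3 (6.98%) had an unadjusted p under 0.05, all higher in HOM, and DESeq2, limma and the likelihood-ratio test also called 0. Over the 4 regions the leptin signalling genes Lepr, Lepr-b, Jak2 and Stat3 were higher in HOM in 13 of 16 values, with a median of 0.12 against -0.04 for all 172, of which 70 were higher. Under TMM 14 of these 16 were higher, against 87 of all 172, and without B2m 12, against 61. With the positive control probes 16 were higher, but so were 133 of all 172. The 16 values are not separate evidence, because Lepr and Lepr-b probe the same gene and the regions share their pools. Stat3 also leaned on HOM pool 6/9. With that pool left out its log2 fold-change was -0.08 (midbrain), 0.0024 (right cortex), 0.05 (left cortex) and 0.03 (hindbrain).

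Socs3 and Stat3 were high in 1 HOM pool and near the HEM level in the other HOM pools. Socs3 is a suppressor of cytokine signalling that is induced by Stat3 and blocks leptin and insulin receptors. In the midbrain the HOM pools 1/3, 5, 4/8, 6/9 and 7/10 had 55.6, 70.5, 70.0, 411 and 81.1 normalised counts, and the HEM pools 4/6, 9, 5/10, 7/12 and 8/14 had 63.9, 63.3, 74.5, 80.5 and 74.2. Pool 6/9 alone stood apart, and the other 4 HOM pools lay around the HEM range. The same pool had 501 in the left cortex, where the other HOM pools had 64.8 to 92.7 and the HEM pools 71.7 to 103. On the right side it had 528, against 89.4 to 149 in the other HOM pools and 98.4 to 132 in the HEM pools. In the hindbrain it had 42.2, inside the HOM range of 26.1 to 42.5.

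The log2 fold-change of Socs3 over all pools was 0.86 in the midbrain (adjusted p = 0.287), 0.93 in the left cortex (adjusted p = 0.301), 0.73 in the right cortex (adjusted p = 0.414) and -0.13 in the hindbrain. Without HOM pool 6/9 it was -0.02 (midbrain), 0.01 (left cortex) and -0.09 (right cortex). Stat3, named after its values were seen, stood apart in the same pool and the same regions. It had 7852 in the midbrain against 4919 to 5807 in the other 9 pools, 9627 in the left cortex against 5155 to 5785, and 11691 in the right cortex against 7399 to 7948. In the hindbrain pool 6/9 had 4367 Stat3 counts, inside the range of 4192 to 4705. The mice of pool 6/9 were 100 and 128 days old, the lowest mean age of the HOM pools (114 days). With age as a covariate neither Socs3 nor Stat3 was called in any region. The part of age in the values of this pool was not tested.

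**Figure D4:**
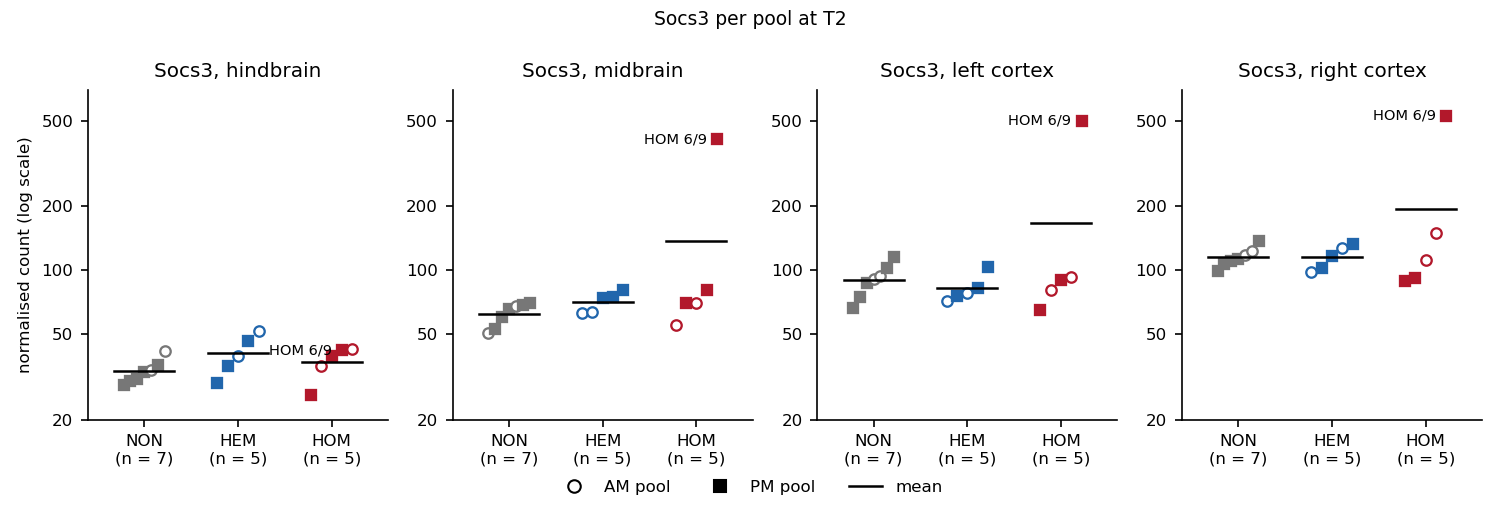
Normalised counts of Socs3 (log axis) in every NON (n = 7), HEM (n = 5) and HOM (n = 5) pool at T2 in the 4 regions, with open circles for AM and filled squares for PM pools. HOM pool 6/9 lies at 411, 501 and 528 in the midbrain, left cortex and right cortex and at 42.2, among the others, in the hindbrain.

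The other inhibitors did not pass with the settings used. Pias3, which blocks DNA binding by Stat3, was at 2104 ± 145 in HEM and 1907 ± 174 in HOM in the left cortex (log2 fold-change -0.14, adjusted p = 0.288). Ptp1b, a phosphatase of the insulin receptor and Jak2, differed by -0.05 to 0.10 across the regions. Neither had pools that separated the genotypes in any region.

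Pdk1 was the only gene called in the midbrain (2.33% of 43). It is pyruvate dehydrogenase kinase 1 by the transcript its probe targets, an enzyme that restrains the entry of pyruvate into the citric acid cycle, and it stands in the list of insulin signalling genes by its symbol. The HEM pools 4/6, 9, 5/10, 7/12 and 8/14 had 8479.7, 7939, 7099, 6606 and 8529 normalised counts, and the HOM pools 1/3, 5, 4/8, 6/9 and 7/10 had 6119, 5367, 6447, 6522 and 6246. All HOM pools lay below all HEM pools, and the nearest pools were the lowest of HEM and the highest of HOM. Pools did not overlap for 4.65% of midbrain genes, Pdk1 and mTor. The means were 7731 ± 852 and 6140.2 ± 461, a log2 fold-change of -0.33 (SE 0.083, adjusted p = 0.0446 in edgeR's quasi-likelihood test). In the same model HEM minus NON was 0.21 and HOM minus NON -0.13, and the 7 NON pools spanned 6069 to 7643, overlapping both. The difference was -0.52 in AM pools and -0.21 in PM pools, and the difference between these (0.30) did not pass edgeR's quasi-likelihood test (adjusted p = 0.523), although with the positive control probes as the scale it was 0.62 and passed (adjusted p = 0.0492). The call was close to the threshold: the adjusted p was 0.136 with TMM normalisation and 0.0513 with limma, and 0.00143 with DESeq2. In edgeR it was 0.127 with HEM and HOM pools only and 0.49 with the positive control probes as the scale. Leaving out 1 pool at a time gave -0.39 to -0.29 with adjusted p between 0.00619 and 0.186, and the call held in 2 of 10 such fits, those without HEM pool 5/10 or 7/12.

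Pdk1 was lower in HOM in the cortex too, without passing. In the left cortex the HEM pools 4/6, 9, 5/10, 7/12 and 8/14 had 13640.3, 18436, 16462, 16261 and 14577, and the HOM pools 1/3, 5, 4/8, 6/9 and 7/10 had 13097, 11896, 14813, 8901 and 13655. Pool 6/9 was lowest, and 2 HOM pools reached into the HEM range. The log2 fold-change was -0.35 (SE 0.13, adjusted p = 0.288) on the left and -0.13 (adjusted p = 0.414) on the right. In the hindbrain, where Pdk1 was least abundant, it was at 3684 ± 81.3 in HEM and 3772 ± 167 in HOM (0.03, 95% interval -0.06 to 0.12).

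Foxo1, a transcription factor that Akt keeps out of the nucleus, differed in opposite directions in the midbrain and right cortex. Neither difference passed edgeR's quasi-likelihood test with the settings used. In the midbrain the HEM pools had 7281, 6297, 6641, 6798 and 7013 (pools 4/6, 9, 5/10, 7/12 and 8/14) and the HOM pools 6224, 5699, 5942, 6313 and 5480.3 (pools 1/3, 5, 4/8, 6/9 and 7/10). Only HOM pool 6/9 exceeded the lowest HEM pool, and the log2 fold-change was -0.20 (SE 0.062, adjusted p = 0.124). The midbrain difference was called with DESeq2 (adjusted p = 0.0373), and in edgeR with age as a covariate (0.0115), with all time points in 1 model (0.035) and without B2m (0.0163). In the right cortex, in the same order of pools, HEM had 4232, 3331, 4535, 4392 and 3909.9 and HOM had 5992, 5547, 5183, 4455 and 5384. Here all HOM pools but 6/9 were above all HEM pools, with means of 4080 ± 479 and 5312 ± 564 and a log2 fold-change of 0.38 (SE 0.13, adjusted p = 0.234). With the positive control probes as the scale it was 0.64 (adjusted p = 0.00584 in edgeR), where the median of all genes was 0.33. In that region HEM minus NON was -0.36 and HOM minus NON 0.02. In the left cortex and hindbrain Foxo1 was lower in HOM, at -0.17 and -0.07, without passing. The difference between the midbrain and right cortex was not tested.

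**Figure D5:**
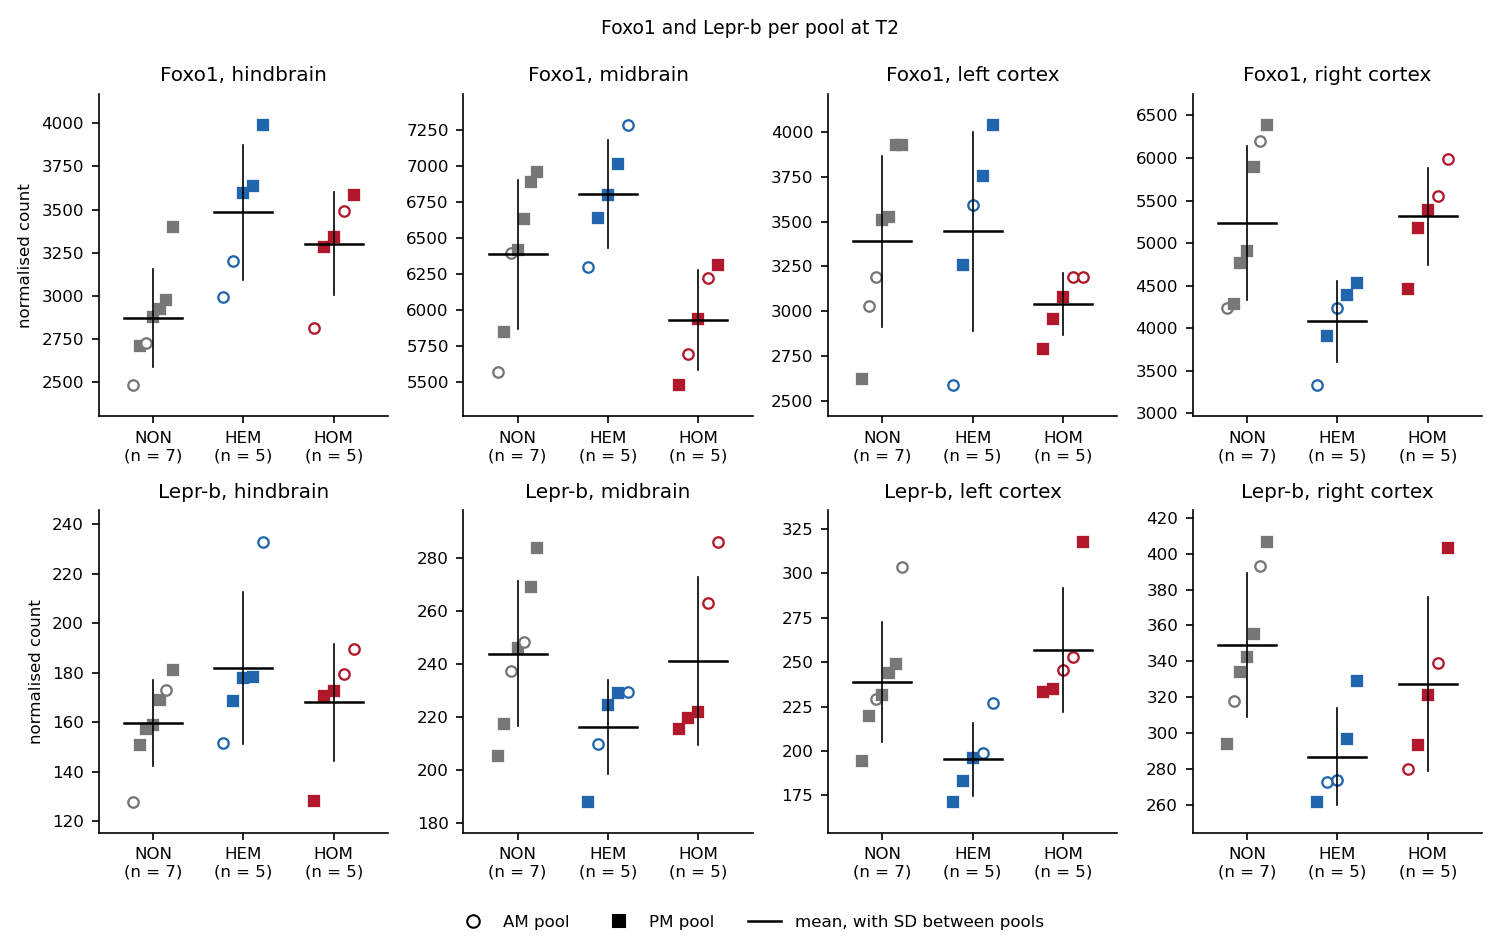
Normalised counts of Foxo1 (top) and Lepr-b (bottom) in the 4 regions in every NON, HEM and HOM pool at T2 (open circles AM, filled squares PM, line and bar the mean and SD; the axes do not start at 0). Foxo1 means are 6806 in HEM and 5932 in HOM in the midbrain and 4080 and 5312 in the right cortex, and Lepr-b pools of the left cortex do not overlap (171 to 227 in HEM, 233 to 318 in HOM).

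Without Pdk1 the insulin signalling list held 12 genes, and with the settings used none passed edgeR's quasi-likelihood test in any region. DESeq2 called Foxo1 in the midbrain (adjusted p = 0.0373) and Gsk3b in the hindbrain (adjusted p = 0.0481), both lower in HOM. Without B2m, edgeR called Foxo1, Gsk3b, Pik3r1 and mTor lower in the midbrain (adjusted p = 0.0163 to 0.0456). With age as a covariate it called Foxo1 in the midbrain (0.0115) and Gsk3b in the hindbrain (0.0105), both lower. With the positive control probes it called members of the list higher in the right cortex, Foxo1, Gsk3b and Pik3r1 among them. In the midbrain, 11 of these 12 were lower in HOM, with a median log2 fold-change of -0.085 against -0.06 for all 43 genes, of which 30 were lower. With the positive control probes or TMM, 9 of the 12 were lower and the median was -0.02 or -0.028, against 21 or 22 of all 43 genes and medians of 0.001 or -0.007. mTor, the growth kinase downstream of Akt, had 6593, 6291, 6115, 6101 and 6808 in HEM pools 4/6, 9, 5/10, 7/12 and 8/14, and 5838, 6049, 6057, 5942 and 6032 in HOM pools 1/3, 5, 4/8, 6/9 and 7/10. The pools did not overlap, but the gap was narrow, with a log2 fold-change of -0.09 (SE 0.041, adjusted p = 0.26). Pik3r1, the regulatory subunit of PI 3-kinase, was at 7244 ± 550.0 in HEM and 6652 ± 189 in HOM in the midbrain (-0.12, adjusted p = 0.195).

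In the hindbrain, 8 of these 12 genes were lower in HOM and 4 higher, which became 7 and 5 under TMM and 2 and 10 with the positive control probes. Of all 43 genes in this region, 24 were lower, 16 under TMM and 4 with the positive control probes. Gsk3b, the kinase that Akt silences to release glycogen synthesis, was at 16421 ± 706 in HEM and 15310.2 ± 401 in HOM (-0.10, SE 0.032, adjusted p = 0.126). The insulin receptor Ir was at 3460.0 ± 173 and 3229 ± 137 (-0.10, adjusted p = 0.467). Pde3b, the phosphodiesterase through which insulin lowers cyclic AMP, was at 4961 ± 259 and 5580.4 ± 357 (0.17, adjusted p = 0.467). Gsk3b, Ir and Arrb1 were the 3 hindbrain genes (6.98%) with an unadjusted p under 0.05, all lower in HOM. With the positive control probes as the scale all 3 were slightly above 0, at 0.05, 0.04 and 0.03.

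In the cortices, Akt1 was at 10305 ± 328 in HEM and 9669 ± 640 in HOM on the left (-0.09, adjusted p = 0.288). It was -0.17 in PM and 0.02 in AM pools (adjusted p = 0.182 for the difference between them). Pik3ca, the catalytic subunit of PI 3-kinase, was at 33016 ± 1568 and 34788 ± 925 on the right (0.08, adjusted p = 0.414). Irs1 and Irs2, the docking proteins of the insulin receptor, had differences between -0.16 and 0.08 over all regions. None passed with the settings used.

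Among the appetite neuropeptides, no member passed for HOM against HEM with the settings used. With the positive control probes as the scale, edgeR called Cart (0.76, adjusted p = 0.031) and Pomc (1.09, adjusted p = 0.0423) higher in the right cortex. The median of all genes was then 0.33 there. Npy, the main signal for feeding, averaged 28006 ± 9381 in HEM and 26421 ± 12277 in HOM in the midbrain (log2 fold-change -0.16, 95% interval -0.74 to 0.41). Its HOM pools 1/3 and 5 of the morning had 19181 and 12032 and the afternoon pools 4/8, 6/9 and 7/10 had 31663, 44145 and 25084. The HEM pools had 39546 and 16419 in the morning (4/6 and 9) and 35508, 23745 and 24814 in the afternoon. Both genotypes thus covered the same wide range. Elsewhere Npy differed by 0.03 (hindbrain), 0.02 (left cortex) and -0.08 (right cortex). Agrp, made by the same hypothalamic neurons, was at 126 ± 33.8 and 129.6 ± 24.3 in the midbrain.

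Cart, a peptide that restrains feeding, was higher in both HOM morning pools than in both HEM morning pools of the left cortex. With only 2 pools against 2, the morning pools did not overlap for 18 of 43 genes there (41.9%), 14 of them higher in HOM (32.6%). The HOM pools 1/3 and 5 had 1699 and 2311 against 629 and 622 in HEM pools 4/6 and 9. In the afternoon HOM pools 4/8, 6/9 and 7/10 had 327, 828.7 and 757 against 414, 474 and 774 in HEM pools 5/10, 7/12 and 8/14, and the genotypes overlapped. The log2 fold-change was 0.83 over all pools (SE 0.33, adjusted p = 0.288), 1.68 in AM and 0.21 in PM, and the PM minus AM difference was -1.47 (adjusted p = 0.182). The NON pools spanned 678 to 2097, and in the same fit HEM minus NON was -1.32 and HOM minus NON -0.49. The right cortex gave 0.50 (adjusted p = 0.414), the midbrain 0.07 and the hindbrain -0.09.

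Pomc, the precursor of the melanocortin peptides, was scattered by pool. In the hindbrain the HEM pools 4/6, 9, 5/10, 7/12 and 8/14 had 642, 71.3, 76.0, 640.3 and 87.9, and the HOM pools 1/3, 5, 4/8, 6/9 and 7/10 had 248, 42.5, 228, 577 and 1060.2. High and low pools occurred in both genotypes, and the log2 fold-change was 0.16 with a 95% interval of -1.56 to 1.88. For the right cortex it was 0.81 (SE 0.45, adjusted p = 0.414), with HOM pool 7/10 at 369 and HEM pool 7/12 at 172. Without HOM pool 7/10 it was 0.37. Midbrain Pomc was at 468 ± 234 in HEM and 502 ± 132 in HOM (0.08). Mch and Hcrt in the midbrain differed by 0.09 and -0.06.

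The histamine genes and Hdac5 gave no call with the settings used. Hdc, which makes histamine, was at 66.5 ± 11.2 in HEM and 51.1 ± 18.3 in HOM in the left cortex (log2 fold-change -0.39, adjusted p = 0.288), and HOM pool 6/9 was lowest, at 29.5. Hrh1, the histamine H1 receptor, differed by -0.20 to 0.08 across regions. Hdac5, a histone deacetylase responsive to leptin in the hypothalamus, differed by -0.12 to 0.01.

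The cortices were measured on both sides, so each pool gave a left and a right value. In a limma fit of the mean of both sides, in which a pool counted once, no gene was called, and 2 of 43 (4.65%) had an unadjusted p under 0.05. The lower one in HOM was Pdk1 (-0.25) and the higher one Lepr-b (0.29), each with an adjusted p of 0.336, and 0 genes were also called with both sides fitted together and the pool as a random block. No gene had an unadjusted p under 0.05 in both cortices when they were tested singly. The 4 regions also shared few directions. By the sign of the log2 fold-change alone, Stat3 was higher in HOM in all 4 regions, and Adrbk1, Akt1, Irs2, Ramp1 and mTor were lower in all 4, genes named after the values were seen. Without HOM pool 6/9 Stat3 was -0.08 in the midbrain, and 0.03 (hindbrain), 0.05 (left cortex) and 0.0024 (right cortex) elsewhere. These sets depended on the scale: 4 genes were higher and 1 lower in all 4 regions under TMM, and 12 were higher, Irs2 among them, and 0 lower with the positive control probes.

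All values are relative to the reference genes, whose level was higher in the cortices of HOM pools without passing correction. Relative to the positive control probes, which are added in fixed amount, the reference genes of the left cortex were at 10.8 in HEM and 12.8 in HOM (exact permutation p = 0.05), and those of the right cortex at 16.7 and 20.04 (exact permutation p = 0.0333), with an adjusted p of 0.16 over 16 control measures. The permutations kept AM and PM pools apart and allowed no p below 0.0167. With the positive control probes as the scale, the median over all 43 genes moved up by 0.26 (right cortex), 0.23 (left cortex), 0.15 (hindbrain) and 0.06 (midbrain) on the log2 scale. The right cortex then had 25 genes called, all higher in HOM. Relative to the other target genes, as under TMM, no gene of either cortex was called.

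The difference between HOM and HEM was also compared between collection times. With the settings used, no gene passed for the afternoon difference minus the morning difference in any region by edgeR's quasi-likelihood test. At an unadjusted p under 0.05 the hindbrain had 2 genes (4.65%), the midbrain 4 (9.3%), the left cortex 8 (18.6%) and the right cortex 12 (27.9%). DESeq2 called 1 gene, Akt1, of the left cortex and 9 genes of the right, and limma called none in any region. With 2 AM pools in each genotype, and 1 of each from a single mouse, the morning values rest on few animals.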

How the data were processed

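The authors isolated RNA of each brain region, mixed RNA of up to 2 mice in equal amounts and deposited raw nCounter counts per pool, with no background correction or normalisation, for 43 target genes and 3 reference genes, with 6 positive and 8 negative control probes. The genotype, time point, collection time and ages came from the sample labels. The deposited counts were fitted per region in edgeR 4.0.16 (R 4.3.3) over the 17 T2 pools, with genotype and collection time as terms, a library size equal to the geometric mean of the reference genes, and a prior count of 0.125. HOM minus HEM was tested by the quasi-likelihood test, with p-values corrected by Benjamini-Hochberg within a region, and a gene was called at an adjusted p under 0.05. The PM minus AM difference of this contrast used a mean per genotype and collection time. The mean of both cortices was fitted in limma 3.58.1 on the log2 scale after adding 0.5 to a count. Control levels were compared by exact two-sided permutation within collection time (120 arrangements). DESeq2 1.42.0, TMM, other scales, the likelihood-ratio test, covariates and the omission of pools served as alternatives. The fits were tested on simulated data. Figures were drawn in Python 3.11.15 with matplotlib 3.10.9.

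The genes, lists and tests were chosen with earlier results of these data known. Named genes were Amylin, Calcr, c-Fos, Socs3, Pomc, Cart and Npy, every called gene, the 5 of lowest p per region among genes above background, and those of them whose pools did not overlap. Adrbk1, Arrb2, Stat3, Lepr, Ramp1, Ramp3, Pias3, Ptp1b, Irs1, Irs2, Hdc, Hrh1, Hdac5, Ins1, Ins2, Agrp, Mch and Hcrt are given as members of their lists, some after their values were seen. Accessions of all 43 probes matched a gene of RefSeq (GRCm38.p6 table, names only). No pair of pools agreed within sampling noise (80 pairs, lowest chi-square per degree of freedom 12.7). NanoStringDiff, the tool of the study, was not used here. Results on 1 reference gene, and on 1 target gene that this rule picks in the left cortex, are not given by name here.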

Additional observations from a re-analysis of the deposited data

Results flagged for a closer look

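Within groups of 5 pools, 11 of 90 tests (12.2%) found 1 pool far from the others by Dixon's criterion, set at about 1 in 20. Some of the genes were picked from these same data, and the same pools recur across regions. The share therefore cannot be compared with that rate. HOM pool 6/9 stood apart for Socs3 in the midbrain (410.8 normalised counts), left cortex (500.9) and right cortex (528.4), for Lepr-b in the left cortex (318) and for Calcr in the midbrain, where it was lowest (737.7). HEM pool 5/10 stood apart for c-Fos in the midbrain (11206), left cortex (28449) and right cortex (36256). HEM pool 4/6 was highest for Calcr in the hindbrain (438.2), HEM pool 7/12 for Pomc in the right cortex (172.1), and HOM pool 4/8 for Amylin in the left cortex (22.37), a level near background. Thus 8 of the 11 values came from 2 pools of the afternoon, HEM 5/10 and HOM 6/9.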

How the results depend on the processing

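The count of genes called in the hindbrain, 1 with the settings used, was 0 with TMM, the positive control probes, without B2m or another reference gene, with the likelihood-ratio test, all time points in 1 model, AM or PM pools alone, adjustment over the 4 regions, limits of 1 or 0.58 on the log2 scale, and HEM pool 5/10 and HOM pool 6/9 left out together (an alternative chosen after seeing the data). It was 2 with DESeq2 or age as a covariate (Arrb1 and Gsk3b), and 0 to 2 with 1 pool left out. The midbrain count of 1 was 0 with TMM, the positive control probes, another reference gene left out, limma, HEM and HOM pools only, PM pools, adjustment over the 4 regions, and limits of 1 or 0.58. It was 9 without B2m, all lower in HOM, 2 with DESeq2, all time points or age (Pdk1 and Foxo1), and 0 to 1 with 1 pool left out. The left cortex count was 0 under every alternative run. The right cortex count of 0 was 25 with the positive control probes and 1 (Jak2) in AM pools, and that of both cortices was 20 with the positive control probes, where the median of all genes was 0.33 and 0.23 on the log2 scale. For the PM minus AM difference, counts of 0 became 12 with the positive control probes in the midbrain (Pdk1 among them), 1 with DESeq2 in the left cortex, and 9 with DESeq2 and 1 with HEM and HOM pools only in the right cortex. With 1 pool left out they were 0 to 1 in the hindbrain and midbrain, and 0 to 5 in the right cortex. The cause of these shifts was not tested.

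HEM and HOM pools shared no mice and no pool number. The sample labels gave no litter, and no pairing of genotypes was fitted. With left and right cortex of a pool as a random block (consensus correlation 0.404), 0 genes were called, as without the block.

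Of the single genes, Arrb1, Gsk3b, Ir and Socs3 of the hindbrain reversed with the positive control probes (0.0259, 0.0517, 0.0437 and 0.0308), as did Cart of the hindbrain (0.25), Akt1 of the left cortex (0.14), and Npy (0.18) and Calcr (0.0732) of the right cortex. In AM pools the reversed values were 1.21, 0.95 and 1.19 for c-Fos in midbrain, left and right cortex, 0.0457 and -0.039 for Calcr in midbrain and hindbrain, -0.65 and -0.40 for Amylin in midbrain and hindbrain, -0.33 for Npy and 0.0233 for Akt1 in the left cortex, -1.30 for hindbrain Pomc, -0.0118 for midbrain Socs3, and 0.0268 for 1 further gene of the left cortex. In PM pools they were 0.18 for Calcr and 0.18 for Npy in the right cortex, 0.26, -0.25 and -0.21 for Npy, Cart and Pomc in the midbrain, and 0.0837 and -0.38 for Cart and c-Fos in the hindbrain.

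With HEM pool 5/10 and HOM pool 6/9 left out together, c-Fos was 0.28, 0.22 and 0.36 and Socs3 -0.0214, -0.0165 and -0.0667 in midbrain, left and right cortex, Calcr 0.0622 and 0.024 in right cortex and midbrain, Npy -0.0011 and -0.0249 in hindbrain and left cortex, and Amylin and Pomc -0.066 and -0.26 in the hindbrain. Npy of the left cortex reversed with age (-0.0197), all time points or a mean per genotype and time (both -0.0385) and without B2m (-0.0103). Hindbrain Amylin reversed with all time points (-0.0771), a mean per genotype and time (-0.0711), background subtracted (-0.005) and without either other reference gene (-0.0054 and -0.0033). With all time points and with a mean per genotype and time, midbrain c-Fos reversed (0.0793 and 0.0792), as did hindbrain Pomc (-0.0404 and -0.0397).

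With 1 pool left out, the hindbrain values ranged from -0.0992 to 0.13 for Amylin, -0.33 to 0.34 for Cart, -0.30 to 1.14 for Pomc and -0.11 to 0.24 for c-Fos. Those of the midbrain ranged from -0.13 to 0.0045 for Calcr, -0.0467 to 0.20 for Cart, -0.37 to 0.13 for Npy, -0.0869 to 0.46 for Pomc, -0.0191 to 1.05 for Socs3 and -0.55 to 0.43 for c-Fos. Those of the cortices ranged from -0.0687 to 0.17 for Npy and -1.14 to 0.34 for c-Fos on the left, and from -0.49 to 0.15 for Calcr, -0.16 to 0.0571 for Npy, -0.0892 to 0.91 for Socs3 and -1.03 to 0.47 for c-Fos on the right. Amylin was above background in 3 of 10 pools of the left cortex and 2 of 10 of the right, where it was called with the positive control probes (0.84).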

Other observations

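Single pools ranked at the end of many genes at once. In the left cortex HOM pool 6/9 was the lowest of the 10 HEM and HOM pools for 18 of 43 genes, Pdk1 and Hdc among them, while it was the highest for Socs3, Stat3, Lepr-b and Npy. In the right cortex HEM pool 9 was lowest for 15 of 43 genes, Pdk1 excepted, where HOM pool 5 was lower. In the midbrain HEM pool 4/6 was highest for 14 of 43 genes, Arrb1, Foxo1 and Calcr among them. These ranks were read after the values were seen and were not tested.

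The midbrain Npy values of the transgenic pools also varied by pool more than by genotype. HOM pool 6/9 (44145) and HEM pool 4/6 (39546) were the highest, and HOM pool 5 (12032) and HEM pool 9 (16419), each from 1 mouse, the lowest, with NON pools at 13505 to 24027.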
